A study of Homo sapiens with 4 samples.

Results

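The genes described here are 45 histone lysine methyltransferases and demethylases, chosen by symbol from a list of such enzymes, with every listed transcript kept. They comprise 26 methyltransferases and 19 demethylases among the 20298 genes of the deposited RIP-seq table, and they hold 365 of its 75165 transcripts. In RIP-seq an antibody pulls down a protein, and the RNA that comes with it is sequenced beside that of the starting lysate. The study used MDA-MB-231, a human triple-negative breast cancer cell line, transduced with a lentivirus for Flag-tagged YTHDC1, a nuclear reader of N6-methyladenosine in RNA, at a multiplicity of infection of 4 and kept in puromycin at 2 μg/ml over 4 days. Nuclear lysate of UV-crosslinked cells gave 2 IP libraries, from 5 μg of anti-Flag antibody, and 2 input libraries, so the overexpressed protein was present in the cells behind all 4 libraries. What was read from the table is 1 value per transcript, the authors' mean normalized count over the 4 libraries together. No value of a single library was available, so no replicate error or depth per library is given. The authors' comparison of IP with input was not used, so no difference between IP and input is given. The values below describe which transcripts of these genes were sequenced in the IP and input libraries taken as a whole, and do not describe binding by YTHDC1.

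Histone lysine methyltransferases transfer methyl groups from S-adenosylmethionine to lysines of histone tails or, for DOT1L, of the histone core. Most carry a SET domain, and the residue they act on sets the outcome: methylation of H3K4 is typical of active promoters and enhancers, H3K36 of transcribed gene bodies, and H3K9 and H3K27 of silenced chromatin. Demethylases remove these marks by either of 2 chemistries, the flavin-dependent oxidation of the LSD family and the iron- and 2-oxoglutarate-dependent reaction of the JmjC family. In breast and other cancers several of these genes are altered, among them KMT2C, KMT2D, EZH2 and NSD2.

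The totals of the marker genes followed the labelled cell line in part. VIM, the mesenchymal intermediate filament gene, had a summed mean normalized count of 80785, and AXL and CD44 had 63189 and 14306. ESR1 and PGR, the hormone receptor genes, had no listed transcript. CDH1, the epithelial cadherin, had 1 listed transcript at 10.0, and EPCAM had 78.3 in all. ERBB2, which is not amplified in triple-negative lines and was expected to be low, had 4303. That was a higher total than in 92.9% of all genes, non-coding ones included, and went against the expectation. The marker totals pool IP and input and were not divided by transcript length, so they do not measure expression. The overexpressed YTHDC1 had 55488.

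All 45 genes were listed, each with 2 to 25 transcripts and a median of 7, against a median of 5 over the 11482 protein-coding genes with at least 2 listed transcripts. Together they took 227018 normalized counts, or 0.680% of the table. Gene totals, the sums over a gene's listed transcripts, ran from 111 for KDM7A to 23428 for KMT2D. These sums were not divided by transcript length, which the files do not give, so a long mRNA collects more counts at the same number of molecules and the totals rank sequencing, not expression. KMT2D, KMT2A and NSD2 held 28.5% of the members' counts. The median gene total was 4399 in the methyltransferases (quartiles 2170 and 8164) and 2269 in the demethylases (quartiles 1061 and 3795), and no comparison of expression between the classes was made from them. In 36 members the total was at least 1000, and in 6 it was under 400, and the same was not counted over other genes. The median gene total was 3335 over all members and 774 over the protein-coding genes with at least 2 listed transcripts. Transcripts are listed only above the authors' read minimum, and the numbers of listed transcripts were not compared at equal gene totals.

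**Figure D1:**
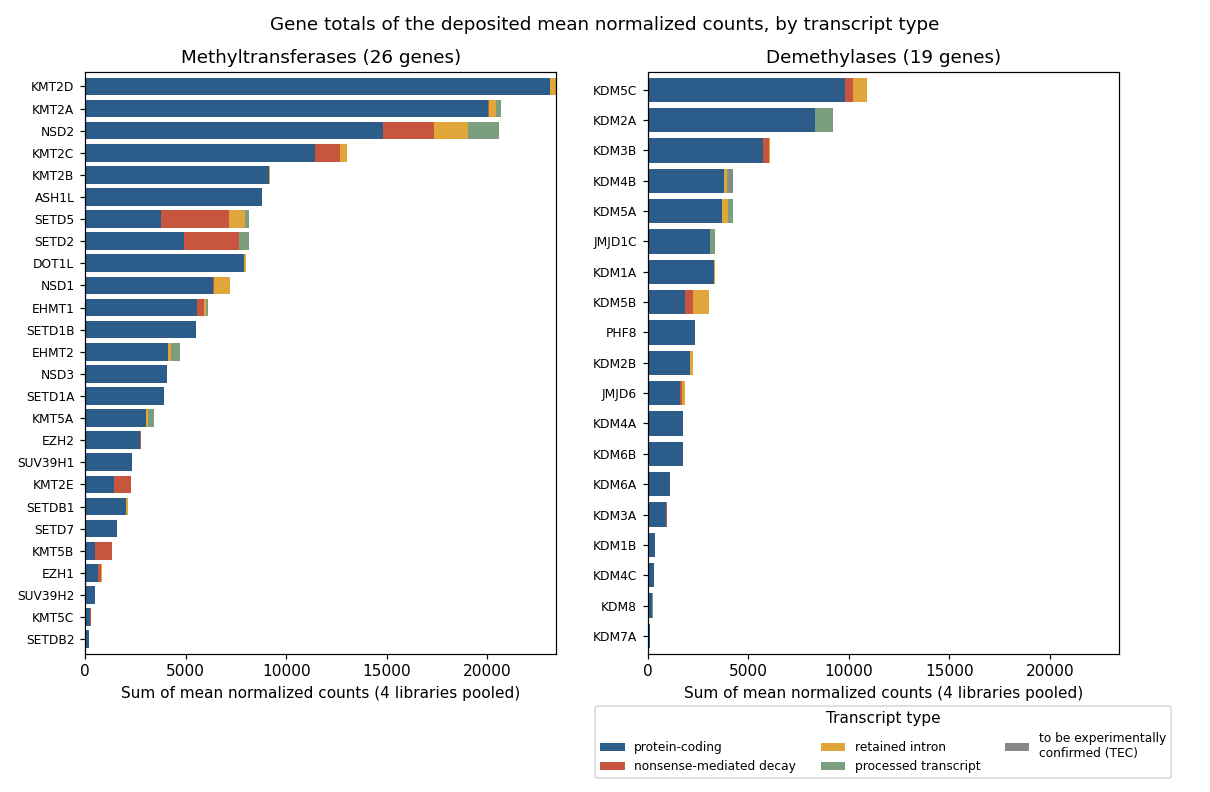
Gene totals of the 26 methyltransferases and 19 demethylases, as the sum of the authors' mean normalized counts over each gene's listed transcripts, on a linear axis with colours for the annotated transcript type. Totals run from 111 for KDM7A to 23428 for KMT2D, with no error bars because the 4 libraries enter as 1 mean, and they are not divided by transcript length.

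Most of the sequencing went to protein-coding transcripts. Type and transcript shares here and below are also shares of counts not divided by length. A long transcript weighs more in them than a short one at the same number of molecules. Of the 365 transcripts, 202 were annotated as protein-coding, 69 as retained intron, 51 as nonsense-mediated decay (NMD, transcripts whose reading frame ends early enough for the surveillance pathway to degrade them), 42 as processed transcript (no open reading frame) and 1 as TEC, a class still awaiting experimental evidence. The protein-coding ones held 88.5% of the members' counts, against 86.9% over the protein-coding genes with at least 2 listed transcripts. NMD transcripts held 5.93% and retained-intron transcripts 3.24%, against 4.36% and 4.42% over those genes. By number, NMD transcripts were 14.0% and retained-intron transcripts 18.9% of the 365, against 9.99% and 17.8% over those genes. Protein-coding transcripts were 55.3% against 58.5%, and processed transcripts 11.5% against 13.6%. Of the 163 transcripts of the other types, 123 had a mean normalized count under 100 and 6 reached 1000. The sequenced RNA was nuclear and, per the paper's methods, depleted of ribosomal RNA.

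Methyltransferases and demethylases were close in the median share of protein-coding counts per gene, at 94.9% and 93.5%. They were also close in the median share of NMD counts per gene, at 0.280% and 0%. A difference appeared in other measures, the number of genes with a listed NMD transcript and the pooled NMD counts. At least 1 NMD transcript was listed for 18 of the 26 methyltransferases (69.2%) and 6 of the 19 demethylases (31.6%), and 35.3% of protein-coding genes with at least 2 listed transcripts had one. NMD transcripts took over 10% of the counts in 7 methyltransferases and in 1 demethylase, KDM5B. These 8 of 45 (17.8%) stood beside 19.2% of the protein-coding genes with at least 2 listed transcripts. By counts NMD transcripts held 7.22% of the methyltransferase total and 2.14% of the demethylase total. Without SETD5, SETD2 and NSD2, the 3 members with the most NMD counts, the methyltransferase share was 2.71%. No genes were taken out of the demethylases in the same way, so 2.71% and 2.14% are not a like comparison. No test was run on these shares, since genes are not replicates and the column used holds no spread between libraries. Retained-intron transcripts were listed for 18 methyltransferases and 12 demethylases, together 66.7% of the members against 46.2% of those protein-coding genes. They exceeded 10% of the counts only in NSD1 and KDM5B among the 45 (4.44%, against 16.3%). The shares of genes with a listed NMD or retained-intron transcript were likewise not compared at equal gene totals. By median these totals were higher in the methyltransferases than in the demethylases.

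**Figure D2:**
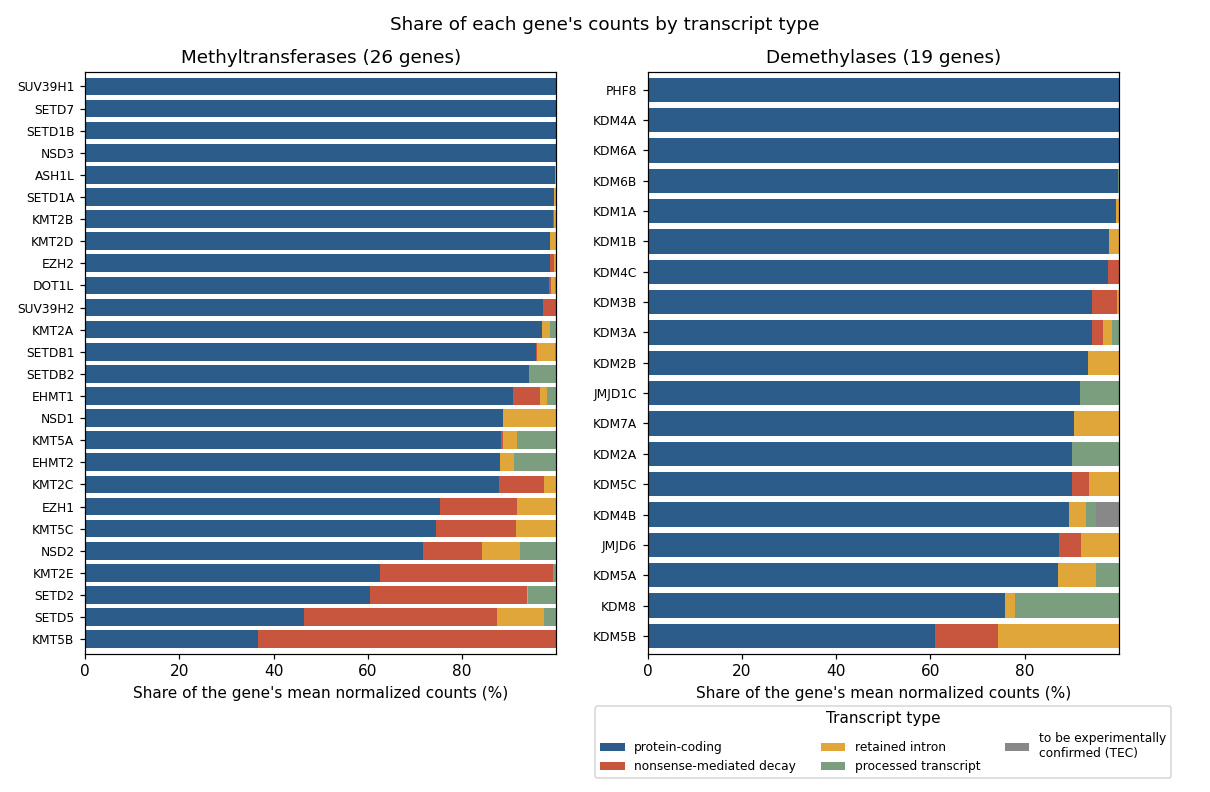
Share of each gene's mean normalized counts by annotated transcript type, in percent, with the 26 methyltransferases on the left and the 19 demethylases on the right, each ordered by the protein-coding share. Protein-coding transcripts hold over 95% in 20 genes and under 80% in 9, with KMT5B lowest at 36.8%. These are 44.4% and 20.0% of the members, against 40.5% and 34.5% of the protein-coding genes with at least 2 listed transcripts.

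A single transcript could hold nearly all of a gene's counts or very few. The leading transcript, the one with the most counts, held a median of 60.7% of the gene total. The median was 59.7% over the protein-coding genes with at least 2 listed transcripts. The leading transcript held over 90% in 9 members (20.0%, against 10.8% of those genes) and under 50% in 15 (33.3%, against 32.7%). In 44 of the 45 members it was protein-coding. KMT5B was the exception, where 13.1% of the protein-coding genes with at least 2 listed transcripts had another type on top. In 14 members a second transcript held at least 25% of the counts, and the same was not counted over other genes. RSEM, which the authors used, divides reads that fit several transcripts by estimate, so a split between near-identical isoforms rests on few reads of their own.

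Among the H3K4 methyltransferases, the KMT2 genes encode the large MLL enzymes and SETD1A and SETD1B the related SET1 enzymes, which work in COMPASS complexes. KMT2D (chromosome 12, 49018978 to 49060794, GRCh38.p14) had 23428 counts, of which KMT2D-201, protein-coding, held 22509 or 96.1%. Its paralog KMT2C had 13009 counts spread more widely, with 65.5% in KMT2C-202, 11.7% in KMT2C-207 and 9.56% in the NMD transcript KMT2C-212, at 1244. The pair KMT2A and KMT2B differed in the same manner. KMT2A (chromosome 11, 118436492 to 118526832, GRCh38.p14), the MLL gene of leukaemia translocations, had 20696 counts over 18 transcripts, and 3 protein-coding ones shared most of them, KMT2A-213 with 37.0%, KMT2A-201 with 33.8% and KMT2A-223 with 18.2%. KMT2B had 9188, with 91.3% in KMT2B-201. SETD1A was the gene with the most concentrated counts of all members, with 99.2% of 3941 in SETD1A-201. SETD1B had 2 listed transcripts, both protein-coding, SETD1B-203 with 64.1% and SETD1B-202 with 35.9% of 5520.

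KMT2E and SETD7 stand apart from these complexes, KMT2E having a SET domain for which little histone activity is established and SETD7 being a monomethyltransferase with many non-histone substrates. KMT2E had 2279 counts, with 47.9% in the protein-coding KMT2E-201 and 33.6% in KMT2E-203, an NMD transcript. Over all its NMD transcripts the share was 36.7%. SETD7 had 1576 counts and listed only protein-coding transcripts, with 86.2% in SETD7-201.

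The H3K9 methyltransferases build the mark that HP1 proteins read. EHMT1 and EHMT2, which form the GLP-G9a dimer, both had several transcripts of weight. EHMT1 had the most listed transcripts of any member, 25, and 8 of them were needed to reach 90% of its 6118 counts. Its leading pair, EHMT1-203 and EHMT1-236, held 26.1% and 26.0%. EHMT2 had 4702 counts, 51.7% of them in EHMT2-203. SETDB1, which silences retroelements, had 2134 counts divided among 3 protein-coding transcripts, with 48.0% in SETDB1-205, 29.6% in SETDB1-201 and 18.2% in SETDB1-217. SUV39H1, the enzyme of pericentric heterochromatin, had 2327 counts with 96.9% in SUV39H1-202, while SUV39H2 had 511 with 77.1% in SUV39H2-201. SETDB2 had the lowest total of the methyltransferases, 197 over 2 transcripts, with 94.1% in SETDB2-203.

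For H3K27, EZH1 and EZH2 are the alternative catalytic subunits of PRC2. EZH2 (chromosome 7, 148807383 to 148884291, GRCh38.p14) had 2784 counts, and its 2 leading protein-coding transcripts were nearly level, EZH2-202 with 42.1% and EZH2-203 with 41.5%. EZH1 had 847, with 69.5% in EZH1-202. The protein-coding share was 98.6% in EZH2 and 75.4% in EZH1, in which NMD transcripts held 16.2% and the retained-intron transcript EZH1-208 held 8.37%.

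The H3K36 group showed a wide range of transcript types. NSD2 (chromosome 4, 1871393 to 1982192, GRCh38.p14), a gene rearranged in some myelomas, had 20592 counts over 22 transcripts, and 10 of them were needed to reach 90%. NSD2-219, protein-coding, held 49.6%. Behind it came 1 transcript each of the 3 other main types, the NMD transcript NSD2-221 at 2047, the retained-intron transcript NSD2-218 at 1504 and the processed transcript NSD2-210 at 1485. NSD2-218 was the only retained-intron transcript and NSD2-210 the only processed transcript of the members to reach 1000. The paralogs NSD1 and NSD3 did not share this makeup. In NSD3 all 7 listed transcripts were protein-coding, with NSD3-201 at 28.1% and NSD3-203 at 28.0% of 4096 counts. NSD1 had 7196 counts, of which NSD1-201 held 53.6% and the retained-intron transcript NSD1-215 held 11.2%.

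SETD2 (chromosome 3, 47016436 to 47164840, GRCh38.p14), the enzyme for H3K36 trimethylation, had 8153 counts, and its NMD transcript SETD2-204 had 2619, the highest NMD value among the members. That was 32.1% of the gene, beside 56.8% for the protein-coding SETD2-202 at 4633. ASH1L had 8814 counts with 99.6% in 3 protein-coding transcripts, ASH1L-202 holding 50.0% and ASH1L-201 holding 38.9%. DOT1L, the H3K79 methyltransferase, which has no SET domain, had 93.5% of its 8009 counts in DOT1L-201.

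The H4K20 enzymes include the monomethyltransferase KMT5A and the di- and trimethylating KMT5B and KMT5C. KMT5B (chromosome 11, 68154863 to 68213648, GRCh38.p14) was the only member whose leading transcript was not protein-coding. Its NMD transcript KMT5B-209 had 846 counts or 63.2% of the gene, and the 4 protein-coding transcripts had 279, 151, 43.9 and 16.9. KMT5C had 300 counts, 53.0% in KMT5C-212 and 16.8% in the NMD transcript KMT5C-203. KMT5A had 3411, with 65.0% in KMT5A-202 and 23.3% in KMT5A-203, both protein-coding, and 0.364% in NMD transcripts.

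SETD5, a SET domain gene without an established residue, had 8168 counts over 23 transcripts, only 5 of which were protein-coding. SETD5-205, protein-coding, held 37.2%, and the NMD transcripts SETD5-228 and SETD5-209 held 24.1% and 10.2%. In all, NMD transcripts made up 41.1% of the gene and protein-coding ones 46.4%. SETD5, SETD2 and NSD2 together held 64.2% of the NMD counts of all 45 members.

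**Figure D3:**
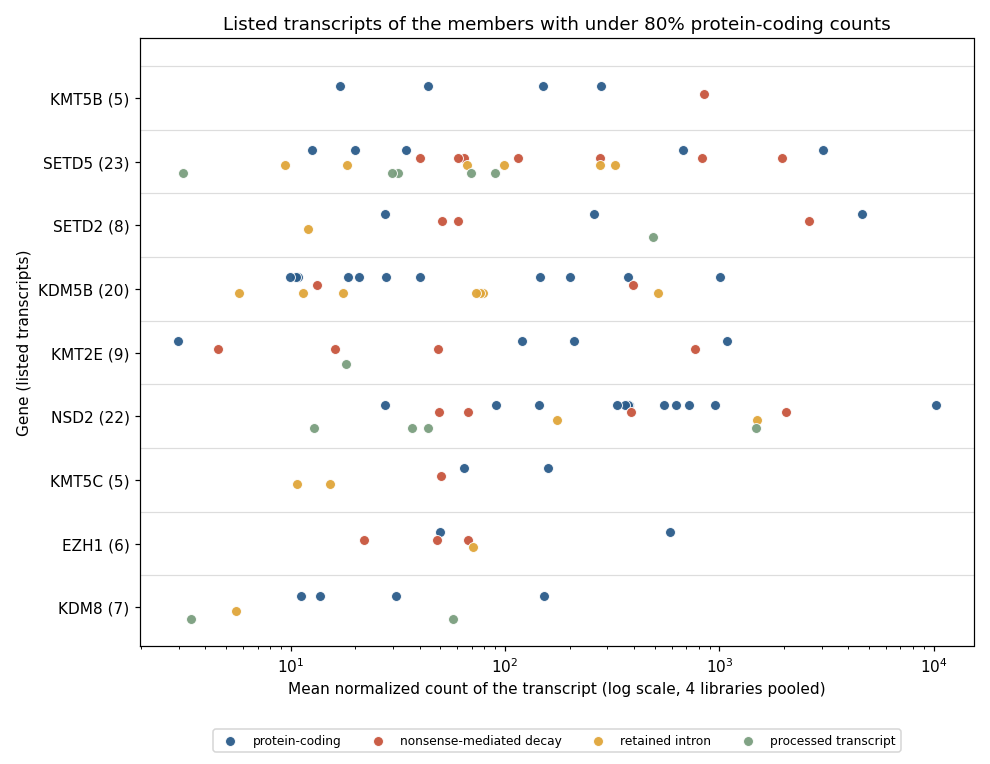
Mean normalized count of each listed transcript, on a log axis, for the 9 members in which protein-coding transcripts hold under 80% of the counts, with the number of listed transcripts in brackets and colours for the transcript type, points of each type set at their own height. In KMT5B the NMD transcript at 846 lies to the right of the protein-coding ones, which reach 279, whereas in the other genes a protein-coding transcript has the highest value.

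The flavin-dependent demethylases act on H3K4. KDM1A, or LSD1, had 3335 counts, which KDM1A-201 and KDM1A-202 shared at 61.7% and 37.6%. KDM1B had 355, with 88.0% in KDM1B-202. Protein-coding transcripts held 99.3% of KDM1A and 97.9% of KDM1B.

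Among the JmjC demethylases, the KDM5 genes, which act on methylated H3K4, differed in how many transcripts reached 90% of the counts, with 3 in KDM5A, 4 in KDM5C and 8 in KDM5B. KDM5C (chromosome X, 53176277 to 53225207, GRCh38.p14) had the highest total of the demethylases, 10917, with 46.6% in KDM5C-205, 27.4% in KDM5C-204 and 12.4% in KDM5C-202. KDM5B had 3056 counts over 20 transcripts and the lowest protein-coding share of the demethylases, 61.0%. Behind KDM5B-219 at 1007 came the retained-intron transcript KDM5B-211 at 518 and the NMD transcript KDM5B-236 at 396. Retained-intron transcripts made up 25.6% of KDM5B, the highest such share of the members, against 8.13% of KDM5A and 6.41% of KDM5C. KDM5A had 4223 counts with 67.4% in KDM5A-201.

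KDM2A and KDM2B, CpG island-binding enzymes for H3K36, had 9236 and 2269 counts. KDM2A-210 held 59.4% of its gene and KDM2B-215 held 60.7%. The other transcript types differed between them, being processed transcripts in KDM2A (9.90%) and retained-intron transcripts in KDM2B (6.45%).

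The KDM3 family, which includes demethylases of H3K9, showed different divisions among close relatives. KDM3B had 94.4% of 6070 counts in KDM3B-201, its single protein-coding transcript. KDM3A had 985 counts mostly in a pair of protein-coding transcripts, KDM3A-201 at 49.8% and KDM3A-202 at 41.5%. JMJD1C had 3366 counts, mostly in JMJD1C-210 at 46.1% and JMJD1C-202 at 45.3%. In the KDM4 family, which acts on H3K9 and H3K36, KDM4A listed 2 transcripts with 92.9% of 1784 counts in KDM4A-201. KDM4B had 4228 counts with 66.3% in KDM4B-211 and 4.81% in KDM4B-212, the TEC transcript. KDM4C had 322 with 48.5% in KDM4C-202.

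The H3K27 demethylases KDM6A and KDM6B had 1137 and 1760 counts, almost all of them protein-coding, with 42.8% in KDM6A-212 and 50.4% in KDM6B-202. PHF8 and KDM7A, related PHD-finger demethylases, had 2382 counts in 7 protein-coding transcripts, led by PHF8-202 at 67.5%, and 111 counts in 2 transcripts, led by KDM7A-201 at 90.6%. KDM8 and JMJD6, JmjC proteins for which activities other than lysine demethylation are described, had 275 and 1875. KDM8 had 55.5% of its counts in KDM8-201 and 20.8% in the processed transcript KDM8-203. JMJD6 had 69.6% in JMJD6-202 and 7.77% in the retained-intron transcript JMJD6-207.

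**Figure D4:**
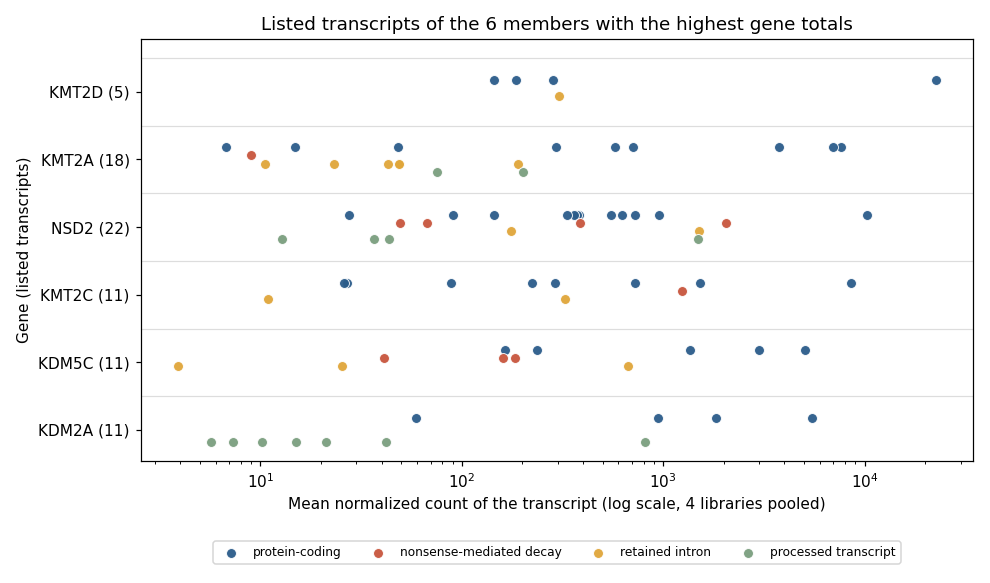
Mean normalized count of each listed transcript, on a log axis, for the 6 members with the highest gene totals, 4 methyltransferases and 2 demethylases, with the number of listed transcripts in brackets and colours for the transcript type, points of each type set at their own height. KMT2D has 1 transcript at 22509 and the next highest at 304, whereas in KMT2A the leading 3 lie between 3759 and 7648.

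A list of 34 related genes was described in the same way, 24 complex partners and HP1 readers of the mark and 10 further genes of the SET-domain and JmjC families. All 34 were listed. In the 24 partners and readers, protein-coding transcripts held a median of 97.4% of the counts, and the share was under 80% in 4 of them (16.7%). It was under 80% in 3 of the 10 further genes, in 9 of the 45 members (20.0%) and in 34.5% of the protein-coding genes with at least 2 listed transcripts. In the COMPASS list, HCFC1 had 20055 counts and DPY30 had 154, with a processed transcript, DPY30-203, on top at 38.9%. In the PRC2 list, RBBP4, a histone chaperone subunit, had the NMD transcript RBBP4-217 on top at 20.5% of 1457 counts, while SUZ12 and EED had 97.5% and 100% protein-coding counts. The HP1 genes CBX1, CBX3 and CBX5 had 1778, 1044 and 2214 counts. Of the CoREST partners of KDM1A, RCOR1 had 3009 counts with 97.9% in RCOR1-201. Among the further SET-domain genes, SETD3, the actin histidine methyltransferase, had 41.1% of its 1386 counts in NMD transcripts, and SETMAR had 77.2% of 113.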

How the data were processed

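RIP-seq of 2 IP and 2 input libraries was grouped by the labels. Per the paper's methods and the labels, the authors mapped reads with STAR (2.7.2b) to a GENCODE v33 transcriptome on GRCh38, estimated reads per transcript with RSEM (1.2.31), dropped transcripts that did not reach 5 reads in 50% of the libraries, adjusted for batch by RUVSeq and ran DESeq2. The methods word the comparison as a knockdown, the labels as IP and input. The deposited signal used here is the authors' mean normalized count per transcript over all libraries. The table's other 4 value columns hold the authors' comparison (log2 fold change, its standard error, p-value and adjusted p-value) and were not used. No counts per library were available, so an edgeR test of IP against input, planned for such counts, was not run. Depth per library is unknown for the same reason.

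Counts were summed per gene, and shares computed per transcript and type, with python 3.11.15 and pandas 2.3.3, after a test on simulated data. All 45 gene identifiers matched the gene name table. Coordinates are gene spans from RefSeq (GRCh38.p14). Named were all members with the leading transcript of each, and members led by another type or by under 50%. The transcripts of the 6 highest genes are all plotted, and only some of them are named. Examples from the related-gene list were chosen after their values were seen. Members and lists were chosen with earlier results of these data known. Alternatives were minimum counts of 10 and 100, protein-coding transcripts alone, the leading transcript alone, and leaving out each class's highest gene. No sequence is printed.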

Additional observations from a re-analysis of the deposited data

How the results depend on the processing

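The number of listed transcripts of the members, 365, was 325 at a mean normalized count of at least 10, 167 at 100 and 202 with protein-coding transcripts alone. The median gene total of the methyltransferases, 4399, was 4392 at a minimum of 10, 4324 at 100, 4009 with protein-coding transcripts alone, 2344 with the leading transcript alone and 4096 without KMT2D. That of the demethylases, 2269, did not move at 10 and was 2023 at 100, 1866 with protein-coding transcripts alone, 1376 with the leading transcript alone and 2072 without KDM5C. The protein-coding share of the members' counts, 88.5%, was 88.6% at 10, 89.9% at 100 and 99.4% over leading transcripts alone. The median share of the leading transcript, 60.7%, did not move at 10 and was 66.3% at 100 and 71.1% over protein-coding transcripts alone. Leaving out KMT2D and KDM5C together, chosen for the next 3 values after seeing the data, gave 349 transcripts, a protein-coding share of 87.2% and an unmoved median leading share. The NMD share of the methyltransferase counts, 7.22%, was 2.71% without SETD5, SETD2 and NSD2, also chosen after seeing the data. The protein-coding share over protein-coding transcripts alone, and the number and share of leading transcripts over leading transcripts alone, are fixed by construction and were left out. All 45 genes kept a transcript under every minimum. No paired analysis was possible because the values used are 1 mean over all 4 libraries, and for the same reason no library was left out and no normalization, filter or tool for counts was compared. Without depth per library, transcripts near the lowest listed value, 2.72, carry no stated precision, and an unlisted transcript is not shown to be absent.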

Other observations

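Genes named after a member were looked up by symbol after the members' values had been seen. Listed were 5 antisense and 2 divergent lncRNA genes and 1 processed pseudogene. KDM7A-DT, a divergent transcript beside the member with the lowest total, had 32.7 mean normalized counts, or 29.5% of the 111 of KDM7A. For the other 7 the value was between 0.179% (EHMT2-AS1) and 3.82% (KDM4A-AS1) of the member's total. ASH1L-AS1 had 128 counts, JMJD1C-AS1 had 89.4, KMT2E-AS1 had 70.7 and KDM2B-DT had 9.14. The pseudogene KMT5AP1 had 23.3, against 3411 for KMT5A. RSEM divides reads that fit both by estimate, and how many of the 23.3 were its own was not tested. The libraries were made with a stranded kit, but whether the counting used strand is not given in the sources used here, so these values are uncertain where genes overlap on opposite strands.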
